A study of Mus musculus with 18 samples.

Results

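The genes described here encode the enzymes that build purine and pyrimidine nucleotides from small precursors. The list holds 10 mouse genes, 7 of the purine route (Ppat, Gart, Pfas, Paics, Adsl, Atic and Impdh2) and 3 of the pyrimidine route (Cad, Umps and Dhodh), chosen by name. Each gene was read from the probe set with the highest mean over all arrays, among probe sets that the platform annotation gives to a single gene. On this rule 9 of the 10 were measured, of 18194 genes in all, and all 9 were among the 12720 genes bright enough to be tested. No single-gene probe set was listed for Impdh2, which was therefore not analysed here.

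The cells were G1E-ER4, a mouse erythroid progenitor line with a disrupted Gata1 gene. It carries the transcription factor GATA1 joined to the hormone-binding part of an estrogen receptor, which estradiol activates. Cells in log phase were taken before treatment (0 h) or after 3, 7, 14, 21 or 30 h in 20 nM estradiol, with 3 Affymetrix arrays at each time. All 18 arrays come from this 1 line, and the series analysed here had no cells kept for the same hours without estradiol, so hormone, GATA1 activity and time in culture cannot be told apart. The labels name the arrays of a time biological replicates but do not state whether each had its own culture. The p-values therefore reflect only how much these samples vary, part of which may be technical.

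In the purine route a phosphoribosyl sugar is turned, step by step, into IMP, which is then converted to AMP or GMP, and folate-bound one-carbon units enter the ring on the way. In the pyrimidine route the ring is made first and is joined to the sugar afterwards to give UMP. Dividing cells draw on both routes for RNA and DNA, and the transcription factor MYC is known to drive several of these genes in proliferating cells. Mature red cells of mammals have no nucleus, and they are known to live by salvage of bases and nucleosides rather than by making purines anew.

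By 30 h, 8 of the 9 measured genes had fallen, with log2 changes from -1.43 to -3.12 on the deposited scale. Atic fell most, 8.69-fold, followed by Gart at 7.48-fold and Dhodh at 6.12-fold. Ppat fell 4.66-fold, Cad 3.88-fold, Pfas 3.41-fold, Umps 3.14-fold and Adsl 2.69-fold. Paics was the exception: on the probe set used it was 1.13-fold higher. The median log2 change of the 9 genes was -1.96, against 0.09 over all genes tested. Of all genes tested, 33% were called lower at 30 h and 36.6% higher (limma, Benjamini-Hochberg adjusted p under 0.05), so a fall by itself was common, and the 8 falls lay between the 1.23 and 7.97 percentiles of all changes. A change in RNA per cell and a change in the mix of cells at different stages cannot be told apart in these bulk samples.

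**Figure D1:**
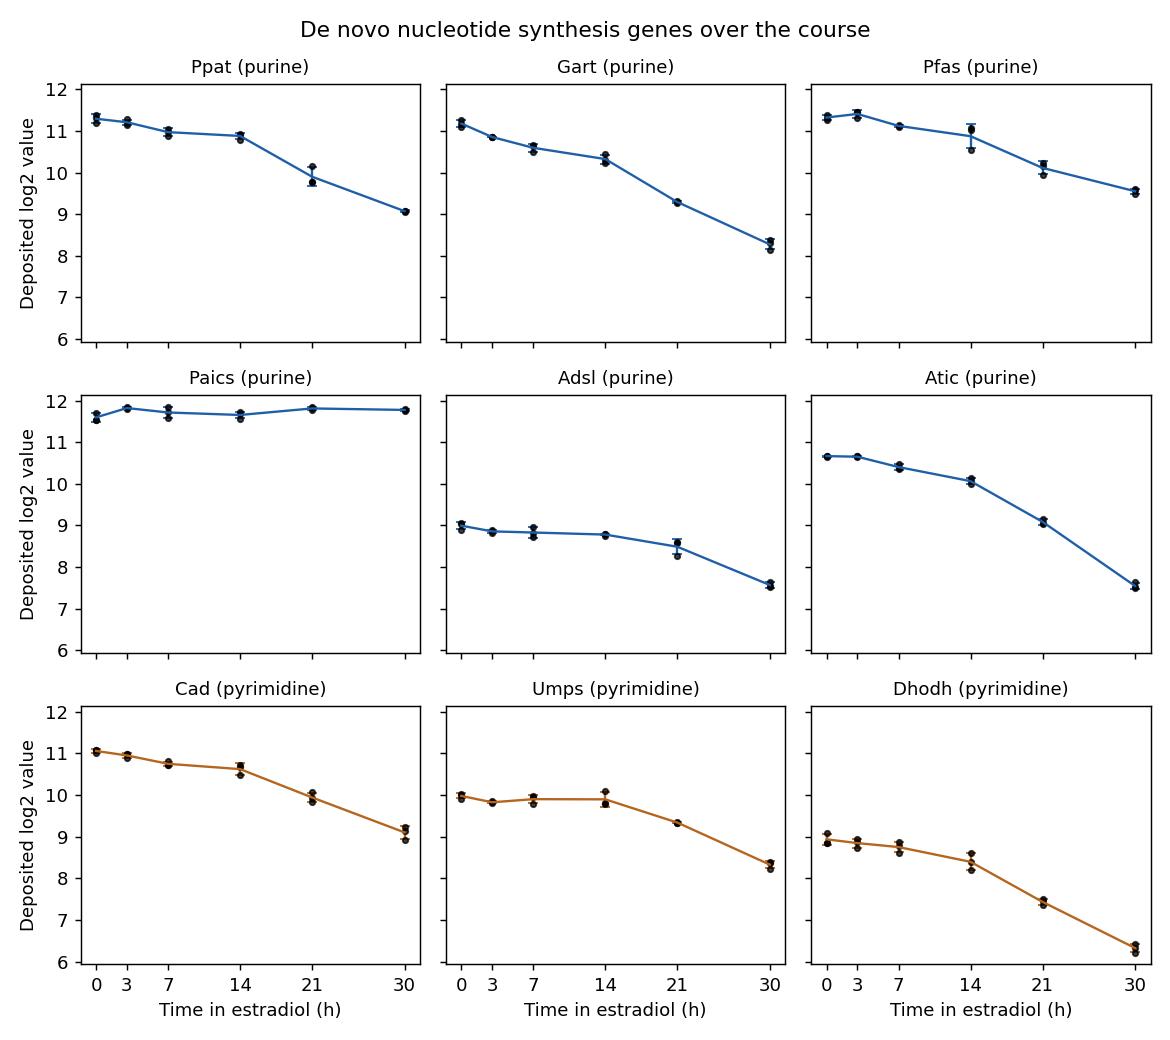
Deposited log2 value (y axis) against hours in estradiol (x axis) for the 9 measured genes, with a black point for each array, a line through the means and bars of 1 SD (n = 3). Purine genes are blue and pyrimidine genes brown; 8 panels slope down, mostly after 14 h, and Paics stays between 11.53 and 11.85.

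Erythroid markers averaged 9.97 to 10.02 per array at 0 h and 11.75 to 11.76 at 30 h. Of 9 tested genes, 7 were higher at 30 h, against 36.6% of all genes. Mast cell and basophil markers averaged 4.74 to 4.97 per array at 0 h and 3.35 to 3.44 at 14 h. They averaged 3.27 to 3.38 at 21 h and 3.21 to 3.40 at 30 h. At 30 h against 0 h, 3 of 5 tested genes were lower and 1 higher, beside 33% and 36.6% of all genes. Most of the decline in these means lay before 14 h, and from 14 h to 21 h 1 of the 5 was called lower, against 17.5% of all genes. The part of these cells in the members' falls was not tested. Megakaryocyte markers averaged 5.65 to 5.74 at 0 h and 5.11 to 5.13 at 30 h. Of 5 tested genes, 2 were lower and 2 higher, near the shares over all genes (33% and 36.6%). Means of granulocyte and macrophage markers stayed between 3.16 and 3.45, and those of lymphoid markers between 3.36 and 3.69, close to the arrays' 40th percentile of 3.20 to 3.35. The log2 gap between 3' and 5' control probe sets, a sign of RNA length, was 1.13 for Gapdh at 0 h and 1.19 at 14 h, then 1.52 at both 21 h and 30 h. For beta-actin it was 1.89, 1.87, 2.15 and 2.20 at these times, and for the transferrin receptor 1.79, 2.03, 2.43 and 2.41. All 3 gaps were wider at 21 h than at 14 h, while from 21 h to 30 h, when the members fell further, they moved by little. Their part in the falls was not tested.

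The purine genes are taken in the order of their steps. Ppat encodes the amidotransferase that commits the phosphoribosyl sugar to purine synthesis. Its 3 arrays at 0 h read 11.39, 11.31 and 11.18, and those at 30 h read 9.08, 9.05 and 9.08. The groups were far apart, with a log2 change of -2.22 (SE 0.094, limma adjusted p = 4.38e-12). Gart, a multifunctional enzyme that acts at several early steps and uses folate for one of them, read 11.27, 11.10 and 11.17 at 0 h and 8.14, 8.30 and 8.37 at 30 h. Every later time lay below 0 h with no overlap, and Gart was the only member called lower as early as 3 h, by 0.32 (SE 0.073, limma adjusted p = 0.00381). With arrays scaled on their bacterial and phage hybridisation controls, no member was called at 3 h (0 at an adjusted and 0 at an unadjusted p under 0.05, limma).

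Pfas encodes the amidotransferase of the next step. It read 11.26, 11.31 and 11.39 at 0 h and 9.48, 9.60 and 9.58 at 30 h, a change of -1.77 (SE 0.11, limma adjusted p = 6.55e-10). Its values at 3 h, 11.30, 11.45 and 11.47, overlapped those at 0 h. Adsl encodes adenylosuccinate lyase, which serves both the route to IMP and the step from IMP to AMP. It began at 9.06, 8.90 and 9.02 and ended at 7.54, 7.53 and 7.64, the smallest fall among the 8 genes (-1.43, SE 0.085, limma adjusted p = 3.11e-10). Atic encodes the bifunctional enzyme that adds the last folate-borne carbon and closes the ring to IMP. It read 10.68, 10.65 and 10.66 at 0 h, 10.64, 10.66 and 10.66 at 3 h, and 7.51, 7.50 and 7.63 at 30 h. Atic thus overlapped its starting level at 3 h and had the largest fall of the list at 30 h (-3.12, SE 0.058, limma adjusted p = 4.66e-16).

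Paics encodes the bifunctional carboxylase and synthetase between the steps of Pfas and Adsl. Its 3 arrays read 11.53, 11.54 and 11.71 at 0 h, 11.80, 11.82 and 11.85 at 3 h, and 11.79, 11.78 and 11.75 at 30 h. The 30 h arrays all lay just above those of 0 h, with a change of 0.18 (SE 0.069, limma adjusted p = 0.0296), while at 7 h and 14 h the groups overlapped 0 h. That small rise depended on the probe set and on single arrays. The probe set used carries the _x_at suffix, which marks probes that may bind other transcripts. The other probe sets of Paics changed by 0.12 (limma adjusted p = 0.208 over all probe sets) and by -0.18 (limma adjusted p = 0.00952, a call in the opposite direction). Without 0 h replicate 1, 0 h replicate 2, 30 h replicate 1 or 30 h replicate 2 the rise was 0.15, 0.15, 0.17 and 0.18 and was not called (limma adjusted p = 0.108, 0.10, 0.0705 and 0.0630), and with control scaling it was 0.38 (limma adjusted p = 0.0777). The 3 probe sets of Paics thus lay between -0.18 and 0.18. Of 20 probe sets of the other 8 genes, 19 were tested, and all 19 were lower, with changes from -0.56 to -4.07. In the fit of genes, 33% of all genes were called lower. The untested probe set, of Ppat, was dim (mean 1.65) and changed by -0.35. Probe sets of the same gene are not independent.

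**Figure D2:**
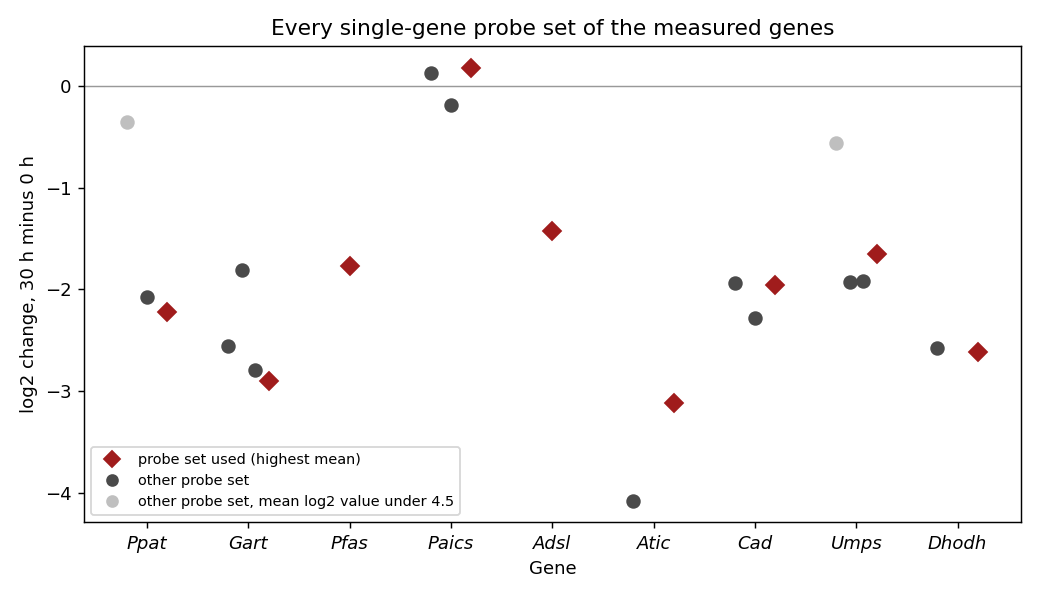
log2 change from 0 h to 30 h (y axis) for every single-gene probe set of the 9 genes (x axis), with red diamonds for the probe set used, dark points for others and pale points for others with a mean log2 value under 4.5. The 3 Paics points lie around 0 while nearly all others lie below -1.

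Ppat and Paics are neighbours on mouse chromosome 5 and are transcribed away from each other. In the RefSeq annotation of GRCm38.p6, Ppat runs from 76913249 to 76951578 on the minus strand and Paics from 76951302 to 76967509 on the plus strand, so that the annotated 5' ends overlap by 277 bases. On the log2 scale, Ppat minus Paics changed by -2.40 between 0 h and 30 h. A two-sided exact permutation test gave p = 0.10, the smallest that 3 arrays against 3 can give. With the mean of each gene's probe sets the change was -1.59. That mean takes in the dim, untested Ppat probe set (mean 1.65, change -0.35). The other Ppat probe sets changed by -2.22 and -2.07. This pair of genes was singled out after its values were seen. The promoter windows of both genes are shown because they share this start region and their RNA levels parted, and that of Atic because it had the largest fall. Each holds 250 bases before and 50 after the RefSeq start, written 5' to 3' on the gene's own strand, with the motif CACGTG, a sequence bound by MYC and other helix-loop-helix factors, in capitals. Their positions in GRCm38.p6 are chr5:76951529-76951828 on the minus strand for Ppat, chr5:76951052-76951351 on the plus strand for Paics and chr1:71556906-71557205 on the plus strand for Atic.
Ppat: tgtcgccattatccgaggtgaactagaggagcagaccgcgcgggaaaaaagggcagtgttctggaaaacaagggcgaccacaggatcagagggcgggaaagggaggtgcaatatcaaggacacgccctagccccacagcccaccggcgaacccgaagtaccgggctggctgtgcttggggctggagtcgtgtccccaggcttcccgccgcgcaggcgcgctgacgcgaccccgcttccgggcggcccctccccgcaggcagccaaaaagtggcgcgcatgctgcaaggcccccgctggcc
Paics: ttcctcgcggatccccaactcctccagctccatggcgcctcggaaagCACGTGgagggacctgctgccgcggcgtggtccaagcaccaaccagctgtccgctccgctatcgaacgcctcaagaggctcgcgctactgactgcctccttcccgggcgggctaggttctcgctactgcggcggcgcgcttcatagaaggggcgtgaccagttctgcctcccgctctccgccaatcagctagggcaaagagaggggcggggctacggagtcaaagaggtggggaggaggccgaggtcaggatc
Atic: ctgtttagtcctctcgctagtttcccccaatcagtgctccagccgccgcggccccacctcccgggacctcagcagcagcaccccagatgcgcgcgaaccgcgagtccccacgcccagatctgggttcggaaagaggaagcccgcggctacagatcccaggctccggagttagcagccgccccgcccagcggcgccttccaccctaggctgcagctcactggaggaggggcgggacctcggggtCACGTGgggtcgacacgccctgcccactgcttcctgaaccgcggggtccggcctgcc
RefSeq windows were at hand for 8 of the 10 genes, the exceptions being Pfas and Dhodh. CACGTG, which reads the same on both strands, was found in 3 of the 8, those of Atic, Paics and Impdh2, and in 7.2% of all 32851 windows of 300 bases. It began 7 bases before the start of Atic and 203 bases before that of Paics. The whole Paics window lies within the annotated span of Ppat. The part of this motif in the changes was not tested. The related motif CACGCG, searched on both strands, was in 9.3% of all windows and in 0 of the 8. GATAA, the core that GATA factors bind, was in 25.4% of all windows on either strand and in 3 of the 8, those of Ppat, Umps and Impdh2. No match of any motif overlapped a match of another in these 8 windows. The 8 windows held 53.0% to 69.7% G and C, against a median of 52.7% over all windows, and the shares were not matched for this. These counts describe letters in short windows and show no binding.

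The pyrimidine genes all fell. Cad encodes the large multifunctional protein that carries out the opening steps of pyrimidine synthesis. It read 11.09, 11.003 and 11.09 at 0 h and 9.14, 8.93 and 9.24 at 30 h, a change of -1.96 (SE 0.086, limma adjusted p = 6.69e-12). Dhodh encodes the mitochondrial dehydrogenase of the route, which passes electrons to the respiratory chain. It read 8.86, 8.86 and 9.09 at 0 h and 6.22, 6.33 and 6.43 at 30 h, with no overlap (-2.61, SE 0.10, limma adjusted p = 2.17e-12). Umps, the bifunctional enzyme that joins the ring to the sugar and releases UMP, read 10.03, 9.91 and 10.002 at 0 h and 8.23, 8.37 and 8.39 at 30 h (-1.65, SE 0.079, limma adjusted p = 1.93e-11). The 3 genes of the pyrimidine route had a median of -1.96 and the 6 measured purine genes a median of -2.00.

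Most of the fall came after 14 h. At 7 h, 4 of the 9 genes were called lower (Ppat, Gart, Atic and Cad), against 16.3% of all genes tested, and at 14 h 6 were lower, against 22.7%. Those 6 were Ppat, Gart, Pfas, Atic, Cad and Dhodh. Adsl at 14 h stood at -0.21 (limma adjusted p = 0.0523) and Umps at -0.08 (limma adjusted p = 0.436). Fewer early calls were made with control scaling, where Gart was the 1 member called lower at 7 h and at 14 h. At 7 h the changes were no smaller on that scale (members' median -0.25, against -0.20 as deposited; Ppat -0.37, limma adjusted p = 0.307), and 653 of all genes were called lower, against 2077. At 14 h the changes were smaller, with Gart at -0.62 (limma adjusted p = 0.0113) and Atic at -0.37 (limma adjusted p = 0.144), and the median over all genes shifted by 0.23. At 30 h it shifted by 0.20, and 2585 genes were called lower and 4999 higher, against 4195 and 4651 as deposited.

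At 21 h, 8 of the 9 genes were lower than at 0 h, against 28.6% of all genes, and Paics was higher, against 31.4%. With control scaling 8 were lower. The F test over all times called 9 of 9 members, against 74.3% of all genes. Paics lay nearest the threshold (limma F test, adjusted p = 0.0385), and 8 members were called under several alternatives. The 14 h to 21 h step held 8 falls of 9, against 17.5% of all genes, with a median of -0.76, and the 21 h to 30 h step also 8 of 9, against 22.5%, with a median of -0.92. Earlier steps were smaller, with medians of -0.20 from 3 h to 7 h (2 of 9 lower, against 5.14%) and -0.13 from 7 h to 14 h (3 of 9, against 10.8%). From 0 h to 3 h, 1 of 9 was lower, Gart, against 14.7%, and 1 was higher, Paics, against 11.2%. Among the 8 genes that fell, the share of the 30 h change already present was 4.98% to 29.4% at 14 h and 35.5% to 68.3% at 21 h. Umps and Adsl were the latest by this measure, at 38.8% and 35.5% at 21 h, and Pfas and Gart the earliest, at 68.3% and 64.9%. Ppat, Gart and Pfas fell most in the 14 h to 21 h step (-0.98, -1.03 and -0.76), whereas Atic, Dhodh, Umps, Adsl and Cad fell most from 21 h to 30 h (-1.54, -1.11, -1.01, -0.92 and -0.84). With control scaling Cad (-0.90, then -0.65) and Dhodh (-1.18, then -0.92) instead fell most from 14 h to 21 h. The members' median on that scale was -0.98 from 14 h to 21 h and -0.73 from 21 h to 30 h. The 21 h to 30 h step is also the longer of these steps. The difference between them was not tested.

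The arrays of the middle times show how these courses differed. Gart read 10.29, 10.24 and 10.44 at 14 h and 9.30, 9.31 and 9.27 at 21 h, a step of -1.03 (SE 0.073, limma adjusted p = 6.22e-08). It went on by nearly the same amount to 30 h (-1.02). Atic read 10.14, 10.07 and 9.98 at 14 h and 9.03, 9.07 and 9.16 at 21 h, and its last step of -1.54 (SE 0.058, limma adjusted p = 5.07e-11) was larger than the one before it. Umps stood at 9.80, 9.79 and 10.10 at 14 h, still overlapping its 0 h arrays, and at 9.34, 9.32 and 9.36 at 21 h. Its fall was thus first called at 21 h. Adsl also was first called at 21 h, when its arrays read 8.61, 8.28 and 8.58, with replicate 2 below the others. In Pfas at 14 h, replicate 1 read 10.54 and the others 11.06 and 11.02, the widest spread of any member at any time (SD 0.29). Ppat at 21 h read 9.77, 10.16 and 9.76, so that replicate 2 stood above the others, yet all 3 arrays lay below those of 14 h (10.94, 10.79 and 10.91) and above those of 30 h.

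**Figure D3:**
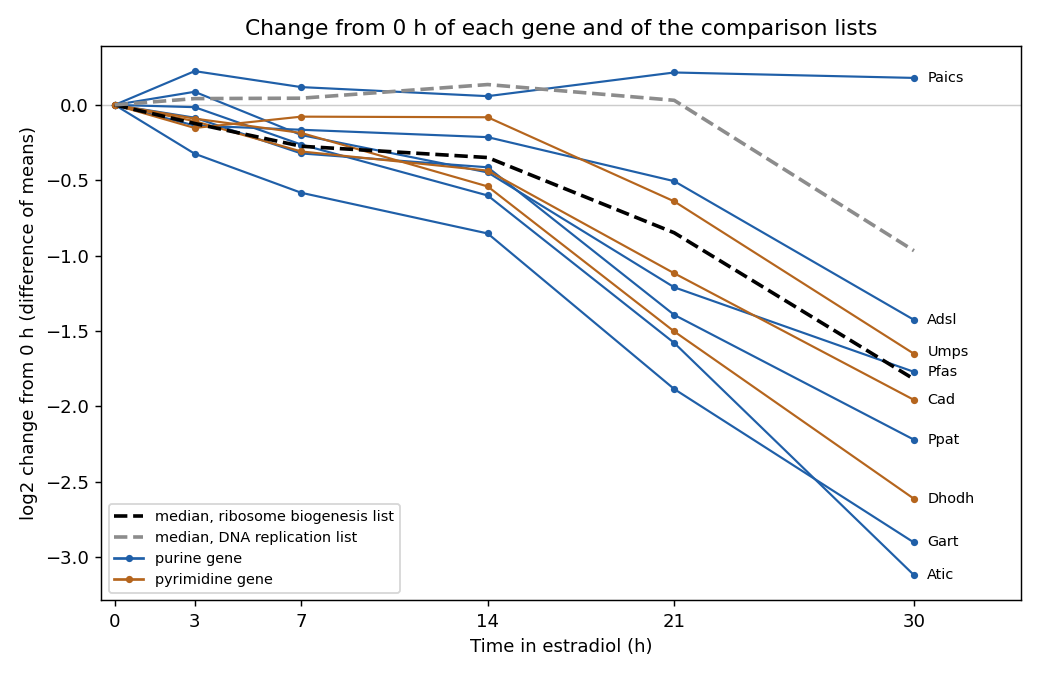
Change in mean log2 value from 0 h (y axis) against hours in estradiol (x axis) for the 9 genes, purine in blue and pyrimidine in brown, with the medians of 20 ribosome biogenesis genes (black dashes) and 21 DNA replication genes (grey dashes). At 21 h the replication median is 0.03 while 8 of the 9 genes lie between -0.51 and -1.88.

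The 9 genes shared this course to different degrees. Likeness was measured as the root mean square difference in log2 change from 0 h over the 5 later times. Cad lay nearest to the mean course of the list (0.053), and Paics farthest (1.14). The closest pairs were Pfas with Cad (0.14) and Adsl with Umps (0.14), each joining a purine and a pyrimidine gene. Ppat lay 0.17 from Cad and 1.33 from its neighbour Paics. Among the other genes tested, the 6 nearest to the mean course were Gstcd (0.060), Septin11 (0.065), Pa2g4 (0.067), Ttc27 (0.068), Coil (0.069) and Ddx21 (0.076). Septin11 encodes a cytoskeletal GTPase, Coil the scaffold of Cajal bodies and Ddx21 a nucleolar RNA helicase.

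Genes that feed or use these routes were counted in lists, written with earlier results of these data known. Their counts at 30 h stand beside 33% of all genes called lower and 36.6% called higher. Of the PRPP supply genes, which make or regulate the sugar donor of both routes, 2 of 4 were lower at 30 h (median -0.39). They were the synthetases Prps2 (9.59, 9.46 and 9.56 at 0 h; 7.92, 7.79 and 7.85 at 30 h; log2 change -1.68, limma adjusted p = 1.76e-12) and Prps1 (-0.57, limma adjusted p = 7.09e-08). Prps1 was not called with control scaling (-0.37, limma adjusted p = 0.0930), which left 1 of 4 lower, against 2585 of 12720 genes. With only 4 genes these counts are not set apart from the share over all genes. Of the genes that take IMP on to AMP and GMP, the 3 tested were lower, with Adss, adenylosuccinate synthetase, at -1.49, Gmps, GMP synthetase, at -1.05 and Impdh1, the isozyme of Impdh2, at -0.89. Impdh1 was dim, with a mean of 6.34 at 0 h and 5.45 at 30 h.

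The CTP and thymidylate branch fell in 7 of 7 (median -2.28), against 33% of all genes called lower. With control scaling 6 fell, and Cmpk1, a nucleotide kinase, changed sign from -0.14 to 0.06. Dctd, a deaminase that feeds thymidylate synthesis, went from 7.92, 7.78 and 7.67 to 2.93, 3.02 and 2.75. These 30 h values lie below the arrays' 40th percentile, so the size of its change (-4.89) is uncertain. The CTP synthetases Ctps2 and Ctps changed by -2.92 and -2.47. One-carbon and serine supply genes fell in 7 of 9 (median -1.46), led by Mthfd1l, the mitochondrial formate producer, which went from 10.98, 10.89 and 10.98 to 6.78, 6.85 and 7.00 (-4.07, limma adjusted p = 2.12e-15). Mthfd1, which makes the folate form used by Gart and Atic, fell by 2.24 and Shmt1, the cytosolic serine hydroxymethyltransferase, fell by 2.07. Mthfd2, a mitochondrial folate dehydrogenase, was 0.30 higher at 30 h than at 0 h (limma adjusted p = 0.000273), opposite to Mthfd1l in the same compartment. Its mean went from 10.52 at 0 h to 11.38 at 21 h and back to 10.82 at 30 h. In that last step Mthfd1l also fell, from a mean of 9.24 to 6.88.

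Salvage and breakdown genes were called in both directions, as genes were over the whole array (33% lower and 36.6% higher at 30 h). Of 11 salvage genes, 7 fell and 4 rose (median -0.29), and with control scaling 4 fell and 4 rose. The count that rose is near the share over all genes. Aprt, which recovers adenine, fell by 2.57, thymidine kinase Tk1 by 1.76 and uridine-cytidine kinase Uck2 by 1.64. The 4 that rose were Uckl1, a uridine kinase relative (0.87), the deoxycytidine kinase Dck (0.55), the adenosine kinase Adk (0.49) and the purine nucleoside phosphorylase Pnp (0.44). Of 11 breakdown genes, 6 fell and 3 rose, or 3 and 4 with control scaling. Samhd1, which degrades deoxynucleotides, fell by 1.88. Ampd3, the AMP deaminase of red cells, rose from 9.36, 9.41 and 9.43 to 11.26, 11.13 and 11.21 (1.80, limma adjusted p = 2.23e-13). Nt5c3, the pyrimidine nucleotidase that clears RNA breakdown products in maturing red cells, rose from 10.52, 10.54 and 10.43 to 12.16, 12.02 and 12.13 (1.60, limma adjusted p = 3.75e-13). In both genes every 30 h array lay above every 0 h array.

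**Figure D4:**
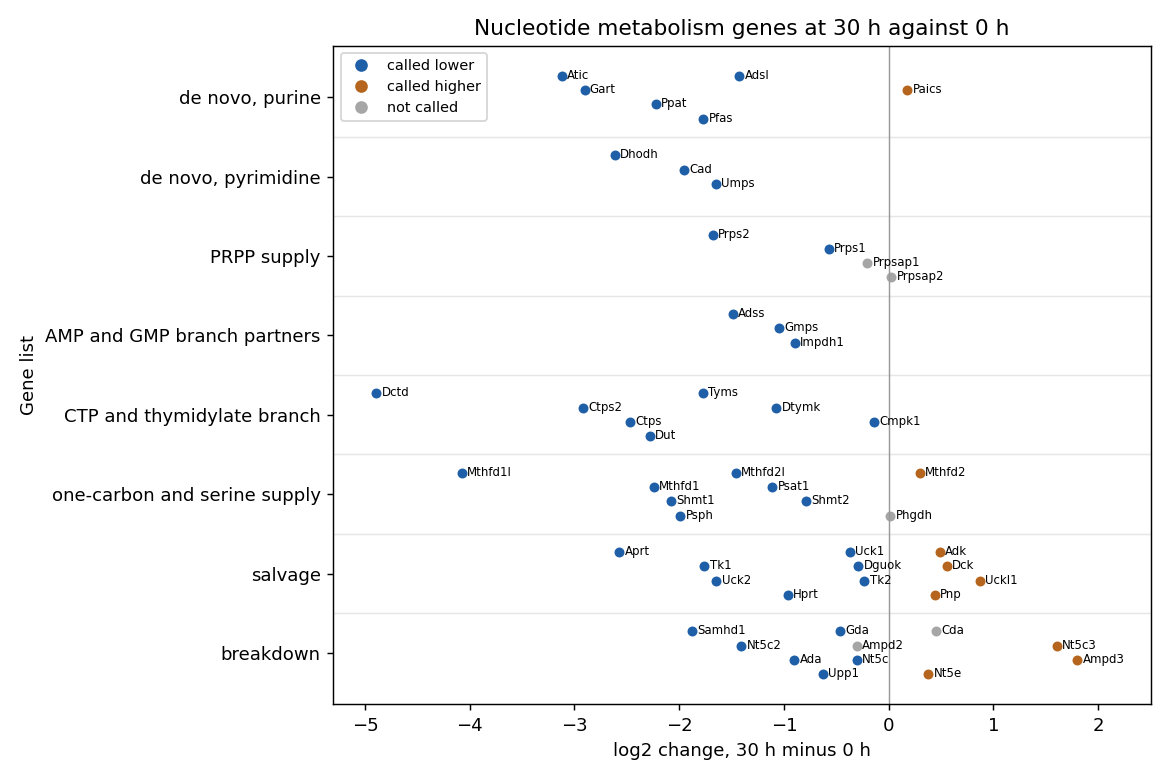
log2 change from 0 h to 30 h (x axis) for each tested gene of the nucleotide lists (y axis), blue where called lower, brown where called higher and grey where not called. Supply and branch genes lie mostly left of 0, as do the de novo genes other than Paics, and salvage and breakdown genes lie on both sides.

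Isozyme pairs were compared by the difference of their log2 changes at 30 h. Prps1 minus Prps2 was 1.11 and Ctps minus Ctps2 was 0.45, and each had p = 0.10 in a two-sided exact permutation test, the smallest possible with 3 arrays against 3 (adjusted p = 0.10 over the 3 planned pairs). Adssl1, the isozyme of Adss, had means of 2.30 to 2.73 over the times, below the arrays' 40th percentile, so that pair is not compared. With the mean of each gene's probe sets the difference of the CTP synthetases turned to -1.01, so no order of Ctps and Ctps2 can be given. The pair of Impdh2 and Impdh1 could not be compared here.

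Myc was called lower at every later time, 3 h included. It read 10.95, 11.04 and 10.92 at 0 h and 10.24, 10.16 and 10.18 at 3 h, a change of -0.78 (limma adjusted p = 0.000965), which was -0.68 with control scaling (limma adjusted p = 0.0193). At 3 h the 9 members had a median of -0.09. Myc then stood at -1.44 at 14 h and -2.97 at 21 h, and from 21 h to 30 h it changed by -0.20 (limma adjusted p = 0.293). In that step 8 of the 9 members fell, against 22.5% of all genes. A link between the course of Myc and those of the members was not tested. Of 8 genes of the MYC network, Myc included, 2 were lower and 6 higher at 30 h, beside 33% and 36.6% of all genes. With control scaling 1 was lower and 5 were higher, beside 2585 and 4999 of 12720 genes. Mxd1 and Mxd4, members of the MXD family that compete with MYC for its partner MAX, rose by 2.59 and 1.88 at 30 h, although Mxd4 was lower at 3 h (-0.92, limma adjusted p = 4.33e-05).

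The list was set beside other genes of growing cells. Of 20 ribosome biogenesis genes, 19 were lower at 21 h and 20 at 30 h, beside 28.6% and 33% of all genes. Their medians were -0.85 and -1.82, against -1.21 and -1.96 for the 9 members. Of 21 DNA replication genes, 5 were lower and 8 higher at 21 h, near the 28.6% and 31.4% of all genes. Their median was then 0.03, against 0.07 over all genes. At 30 h 20 of the 21 were lower, against 33% of all genes, with a median of -0.97. These comparisons all use the same 0 h arrays, and no test of a difference between lists was made.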

How the data were processed

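Each array came as a column of log2 values that the authors deposited, covering 45101 probe sets. Base 2 was inferred from their range, up to 14.4, and array medians of 4.04 to 4.09 show a common scale. Probe summarisation, background removal and array scaling were not given in the sources used here. Changes are relative to the middle of all genes. Per the labels' protocols, Trizol was used for RNA and biotin for labelling. The number of arrays limits the precision.

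Genes were named from the platform annotation (34958 single-gene probe sets, 932 with several genes, 9211 with none). All 141 list genes measured, of 150, matched RefSeq by Entrez identifier, and 0 symbols changed. A gene was tested if 3 or more arrays read it above their own 40th percentile. One limma fit (version 3.58.1, R 4.3.3) covered the 18 arrays, with 12 residual degrees of freedom left after the means of the 6 times. Contrasts ran against 0 h and between successive times, two-sided, with Benjamini-Hochberg adjustment over 12720 genes. Tested on simulated data at 30 h versus 0 h for 12720 genes, the share of changed genes recovered was 32% at 1.25-fold, 84% at 1.5-fold, 96% at 2-fold and 100% at 4-fold. There were 10 false calls. The simulation changed only a small part of the genes and used independent normal noise. In the data 33% of genes were called lower and 36.6% higher at 30 h, so these shares need not hold here. Members, gene lists and tests were chosen with earlier results of these data known. Named genes were all members, up to 3 called genes with the largest change per nucleotide list, isozymes, Myc network genes and the 6 genes nearest in course. Cmpk1, Mthfd2 and the salvage genes that rose were named after their values were seen. Alternatives were 3 scalings, 2 filters, 3 probe set rules, fits of only the times compared, a trended robust variance, the replicate block and leaving out each array. No pair of arrays held identical values (0).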

Additional observations from a re-analysis of the deposited data

How the results depend on the processing

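The falls of the 8 genes at 30 h kept their direction and call under all 28 alternatives that gave a value for each gene, 224 values in all, with limma adjusted p up to 2.76e-06. Paics did not: without _x_at and _s_at probe sets it was -0.184. Counts of members called at 21 h and 30 h against 0 h stayed at 8 to 9, and those of the last 2 steps at 7 to 9. Early counts moved. With scaling on hybridisation controls the count went from 2 to 0 at 3 h (0 unadjusted), from 4 to 1 at 7 h and from 6 to 1 at 14 h against 0 h, from 2 to 0 from 3 h to 7 h (3 unadjusted), and from 3 to 0 from 7 h to 14 h (0 unadjusted). The falls at 7 h were larger on that scale (members' median -0.248 against 0 h and -0.346 against 3 h, from -0.20 and -0.201), and calls over all genes also dropped. With the mean of probe sets it was 0 at 3 h (3 unadjusted), Prps1 minus Prps2 was 1.544 and Ctps minus Ctps2 turned to -1.008. From 3 h to 7 h the count was 4 with every probe set on its own, with a trended and robust variance and without _x_at and _s_at probe sets, and 5 with only the arrays of these times, which gave 1 from 7 h to 14 h. Leaving out 1 array gave 1 to 2 at 3 h (1 without 0 h replicates 1 or 2 or 3 h replicates 2 or 3), 1 to 3 from 3 h to 7 h (1 without any 3 h array or 7 h replicate 3) and 1 to 3 from 7 h to 14 h (1 without 7 h replicate 1). Replicate numbers gave no sign of pairing: deviations of same-numbered arrays correlated at -0.158 to 0.136 (mean 0.00874). These values cannot show whether same-numbered arrays shared a culture. With the replicate block the count from 3 h to 7 h was 3. The F test called 8 members with that block, with control scaling, with the mean of probe sets and with no filter. It called 8 to 9 when 1 array was left out. The causes were not tested. Signal over background limits Dctd, Impdh1 and Adssl1.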
